A study of Mus musculus with 6 samples.

Results

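Platelet-derived growth factor (PDGF) signalling was followed through its 4 ligand genes, Pdgfa, Pdgfb, Pdgfc and Pdgfd, and its 2 receptor genes, Pdgfra and Pdgfrb, in RNA of sorted mouse muscle cells. The genes were chosen by family membership, with earlier results of these data known, and found by symbol. All 6 were present once among the 53715 genes of the count table. All 6 were also among the 26559 genes with enough reads to be tested. Every library came from wild-type C57BL/6J males aged 14 weeks. The stimulated group (3 libraries) had its crural muscles driven electrically through 40 contractions, 20 eccentric and 20 concentric, in a bout of about 10 minutes, and was killed 3 hours later; the sham group (3 libraries) was not stimulated. Gastrocnemius and soleus were dissociated and sorted for CD146+CD45-CD31- cells, a gate meant for pericytes, and total RNA was sequenced after a low-input stranded preparation. The labels give 3 males a group and do not say that each library was 1 animal, so p-values measure the spread between these libraries.

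PDGF ligands are secreted dimers that bring receptor chains together, and the paired receptors then phosphorylate each other and recruit signalling proteins. PDGF-B made by endothelial cells acts on PDGFR-beta of pericytes and holds them at the capillary. In muscle, PDGFR-alpha is the surface marker of fibro-adipogenic progenitors, the connective tissue cells between fibres, and PDGF-A and PDGF-C are its main ligands. PDGF-C and PDGF-D are secreted in a latent form and become active when proteases remove an amino-terminal CUB domain.

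Libraries held 17520338 to 23709220 estimated reads. The sorted RNA carried markers of several cell types, with no listed gene at 0 in every library. Ptprc, which encodes the CD45 that the gate excludes, stood at 194 to 1035 CPM (estimated gene counts scaled to library size by TMM). Pecam1, which encodes CD31, stood at 384 to 1277 CPM, against 24.3 to 105 CPM for Mcam, the gene of CD146. Of 15 pericyte markers, Rgs5 reached 72.5 to 337 CPM, while Higd1b was at 0.246 to 1.57 CPM. Sham library 2 stood apart: Pecam1 was highest and Ptprc lowest there. In bulk RNA, fewer cells of a type and less RNA per cell cannot be told apart.

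No PDGF gene passed the test between stimulated and sham libraries (edgeR quasi-likelihood test, adjusted p below 0.05 over all tested genes), and no gene in the whole table did, so that the share called was 0.0%. The log2 fold change was negative for Pdgfb, Pdgfd, Pdgfra and Pdgfrb and positive for Pdgfa and Pdgfc. It was below 0 for 52.0% of all tested genes. The median over the 6 genes was -0.45, beside -0.02 over all tested genes. Without a correction for multiple tests, 1 of the 6 had an edgeR p below 0.05, as had 7.05% of tested genes (4.41% with a lower and 2.64% with a higher level after stimulation). The stimulated and sham libraries failed to overlap in 1 of 6, beside 12.0% of tested genes (5.89% lower and 6.12% higher after stimulation). That gene was Pdgfd in both counts, lower after stimulation. The first count depended on the fit. In reads summed over transcripts, 2 of the 6 had an unadjusted edgeR p below 0.05, as had 1988 of 26548 tested genes. They were Pdgfd and Pdgfb, with log2 fold changes of -0.88 and -0.93. DESeq2 and edgeR with no filter on low counts gave the same 2 genes. Over all tested genes, these 2 fits gave 2042 of 26559 and 2842 of 48844. The other fits to all 6 libraries gave 1 of the 6. Their shares over all tested genes lay between 1792 of 26559 (replicate block) and 1733 of 22402 (filter of 1 CPM). Leaving out 1 library gave 0 to 3 of the 6, with 3 reached without stimulated 3, where 1883 of 28597 tested genes did so. Over all tested genes, the share ranged from 1087 of 27642 without stimulated 1 to 3286 of 28759 without sham 3. DESeq2 and limma voom also called 0 of the 6, although DESeq2 called 74 genes higher and 153 lower in the whole table.

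**Figure D1:**
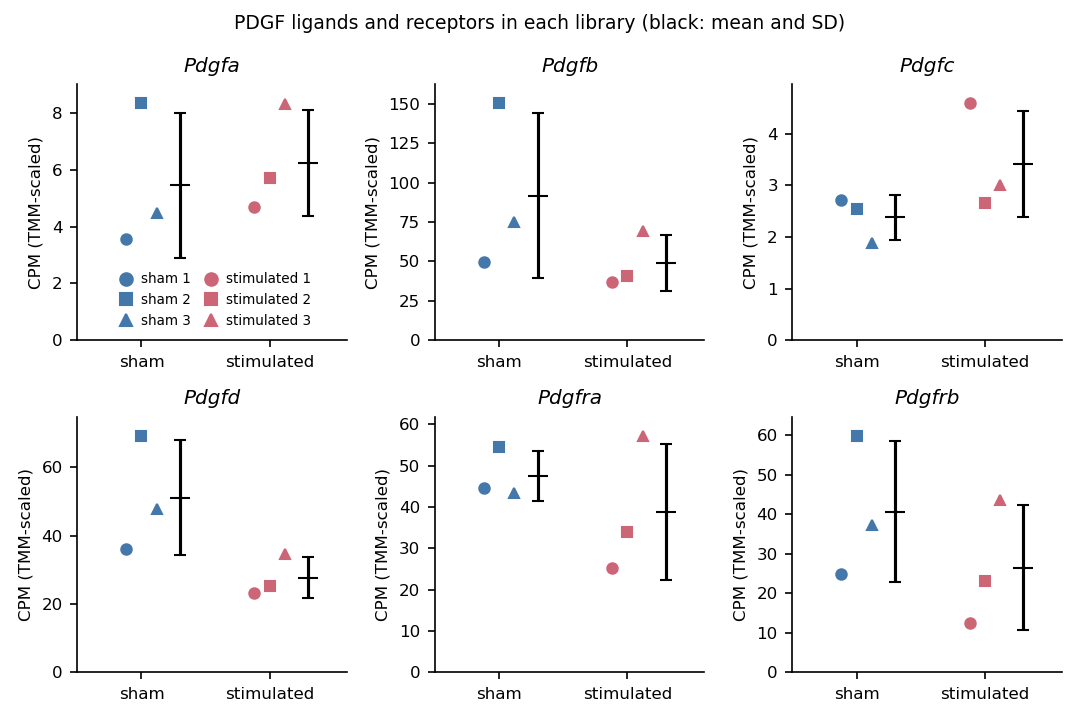
TMM-scaled CPM (vertical axis, from 0) of the 4 ligand and 2 receptor genes in 3 sham and 3 stimulated libraries, 1 point a library, with group mean and SD. Sham library 2 is the highest of the 6 for Pdgfa, Pdgfb, Pdgfd and Pdgfrb, and only for Pdgfd do the groups not overlap.

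Levels of different genes were compared as CPM per kilobase of effective transcript length. Effective lengths are estimates, and they departed from the annotated lengths. Their mean was 7608 bases for Pdgfrb, whose transcripts have 5407 and 5423 bases. For Pdgfd it was 1821 bases, while Pdgfd-201 and Pdgfd-203 have 3131 and 2862 bases. The ranking below rests on these estimates and was not repeated with annotated lengths. Pdgfb was highest, at 25.4 ± 15.2 CPM per kilobase (SD, n = 6), followed by Pdgfd at 21.6 ± 9.35 (SD, n = 6). Pdgfra followed at 10.2 ± 2.85, Pdgfrb at 4.41 ± 2.23, Pdgfa at 3.45 ± 1.21 and Pdgfc at 0.951 ± 0.297 CPM per kilobase (SD, n = 6 each). The order of Pdgfb and Pdgfd was not fixed: Pdgfb was above Pdgfd in 5 of 6 libraries, with a ratio of 0.908 to 1.43. Pdgfrb and Pdgfa changed places too, with Pdgfrb above in 4 of 6 libraries and a ratio of 0.595 to 1.86. Every other neighbouring pair kept its order in 6 of 6 libraries: Pdgfd exceeded Pdgfra 1.41 to 2.96 times, Pdgfra exceeded Pdgfrb 1.63 to 3.61 times, and Pdgfa exceeded Pdgfc 1.84 to 5.90 times. Among all tested genes, the mean log2 CPM of Pdgfb ranked at the 90.0 percentile and that of Pdgfc at the 38.6 percentile.

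Pdgfb (ENSMUSG00000000489.7, chr15:79995874-80014977, minus strand, GRCm38) encodes the ligand that recruits pericytes. It was read at 36.8, 40.6 and 69.3 CPM in stimulated libraries 1 to 3 and at 49.6, 150.2 and 74.9 CPM in sham libraries 1 to 3. Sham 2 held by far the most, and stimulated 3 exceeded sham 1, so the groups overlapped. The means were 48.9 ± 17.7 and 91.5 ± 52.3 CPM (SD, n = 3 each), a log2 fold change of -0.90 (SE 0.43, 95% interval -1.87 to 0.06) with an adjusted p of 0.726 by edgeR. Without sham 2 the log2 fold change was -0.34.

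The endothelial markers, genes of the cells known to make this ligand, lay lower as well. All 15 had a negative log2 fold change, and their summed level was 2849 to 4341 CPM in stimulated and 4534 to 11461 CPM in sham libraries. Relative to the mean log2 level of these markers, Pdgfb stood at -1.59 ± 0.20 after stimulation and -1.85 ± 0.15 in sham (SD, n = 3 each). The difference, 0.26, had p = 0.3 in an exact two-sided permutation test (adjusted p = 0.75 over 5 such differences, smallest possible p 0.1), and was 0.147 without stimulated 3. Their share in the Pdgfb difference was not tested further.

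**Figure D2:**
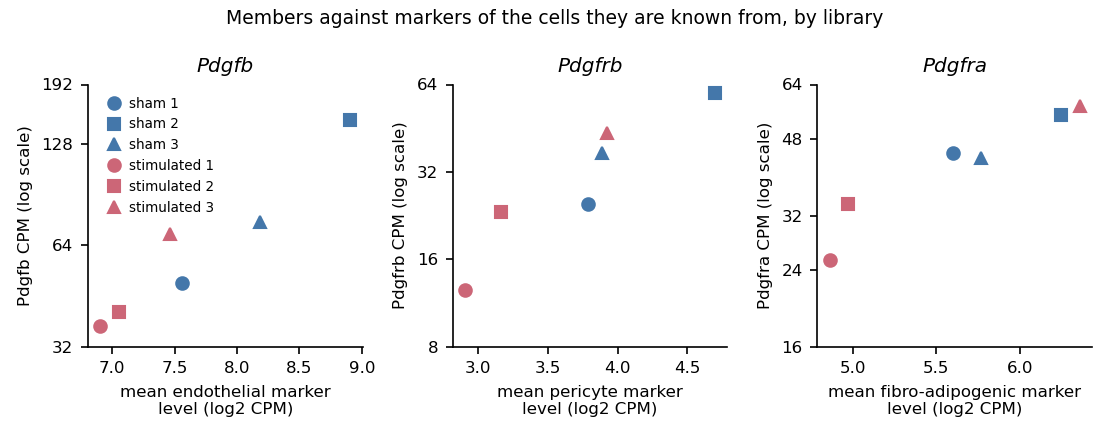
Level of Pdgfb, Pdgfrb and Pdgfra (TMM-scaled CPM, log axis) against the mean log2 CPM of endothelial, pericyte and fibro-adipogenic markers, 1 point a library, circles, squares and triangles for replicates 1, 2 and 3. Stimulated libraries 1 and 2 lie at the lower left in all 3 panels, and sham library 2 lies at the upper right for Pdgfb and Pdgfrb.

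Pdgfd (ENSMUSG00000032006.15, chr9:6168584-6378850, plus strand) encodes a ligand that binds PDGFR-beta after its CUB domain is cut off. Stimulated libraries 1 to 3 held 23.3, 25.4 and 34.5 CPM, and sham libraries 1 to 3 held 36.0, 69.2 and 47.9 CPM. Each stimulated library was below each sham library, although stimulated 3 and sham 1 nearly touched. The means were 27.7 ± 5.96 and 51.0 ± 16.8 CPM (SD, n = 3 each). The log2 fold change of -0.88 (SE 0.30, 95% interval -1.56 to -0.20) had an adjusted p of 0.617 by edgeR. It was -0.59 without sham 2. The unadjusted p of the same edgeR test no longer fell below 0.05 without sham 2, without stimulated 1 or without stimulated 2.

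Pdgfd transcripts differ in their coding sequence, and the stretches that differ are shown here because the read shares below turn on them. The bases were read from GENCODE M21 transcripts. Much of the growth factor domain lies in exon 6 of 7 at chr9:6359703-6359917 (GRCm38, plus strand, 215 bases), with its 7 in-frame cysteine codons in capitals. The growth factor domain of PDGF ligands has a cystine knot fold, and these codons lie in that domain. The exon leaves a remainder of 2 bases after division by 3, and leaving it out therefore shifts the frame.
Pdgfd exon 6: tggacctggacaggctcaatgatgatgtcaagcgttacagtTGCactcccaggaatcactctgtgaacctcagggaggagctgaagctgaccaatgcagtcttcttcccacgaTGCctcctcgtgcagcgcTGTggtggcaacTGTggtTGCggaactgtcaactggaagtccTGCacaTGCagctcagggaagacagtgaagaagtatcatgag
The second stretch is 18 bases at the start of exon 2, chr9:6288472-6288489 (GRCm38, plus strand), in capitals between 15 bases on each side; Pdgfd-202 and Pdgfd-203 have them and Pdgfd-201 lacks them.
Pdgfd exon 2 addition: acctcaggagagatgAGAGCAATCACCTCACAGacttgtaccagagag

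Transcripts without exon 6 (Pdgfd-203, 783 coding bases against 1092 in Pdgfd-201) took 65.3, 52.5 and 59.3% of Pdgfd reads in stimulated libraries 1 to 3 and 64.3, 54.1 and 53.4% in sham libraries 1 to 3. The means, 59.0 ± 6.37% and 57.3 ± 6.11% (SD, n = 3 each), did not differ beyond that spread (exact two-sided permutation test, p = 0.8). In each library the transcript that lacks the cysteine-rich exon took the larger part of Pdgfd reads. The 18 added bases of exon 2 were in transcripts with 76.6, 55.8 and 64.3% of Pdgfd reads after stimulation and 64.4, 54.1 and 53.6% in sham (exact two-sided permutation test, p = 0.3). Pdgfd-202, with 1110 coding bases, is the transcript that holds both these bases and exon 6.

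Pdgfd-202 was singled out after its values were seen. It was assigned 50.4, 15.9 and 41.5 reads in stimulated libraries 1 to 3 and 0.2, 0.0 and 1.3 reads in sham libraries 1 to 3. Its read share was 11.4, 3.32 and 5.08% after stimulation and 0.0284, 0 and 0.157% in sham, and every stimulated value lay above every sham value. How often other transcripts with so few reads lie apart in this way was not counted. The exact two-sided permutation p was 0.1, the smallest that 3 against 3 libraries allow (adjusted p = 0.733 over 11 forms compared). In edgeR across 65202 transcripts, Pdgfd-202 had an adjusted p of 0.574. Of 18 PDGF transcripts tested, 3 had an unadjusted edgeR p below 0.05, all from Pdgfd, beside 4.64% of all transcripts. They did not go 1 way: Pdgfd-202 was higher after stimulation, and Pdgfd-201 and Pdgfd-203 had log2 fold changes of -1.23 and -0.83. Reads are divided among transcripts by estimation, and no measure of its uncertainty was used here.

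**Figure D3:**
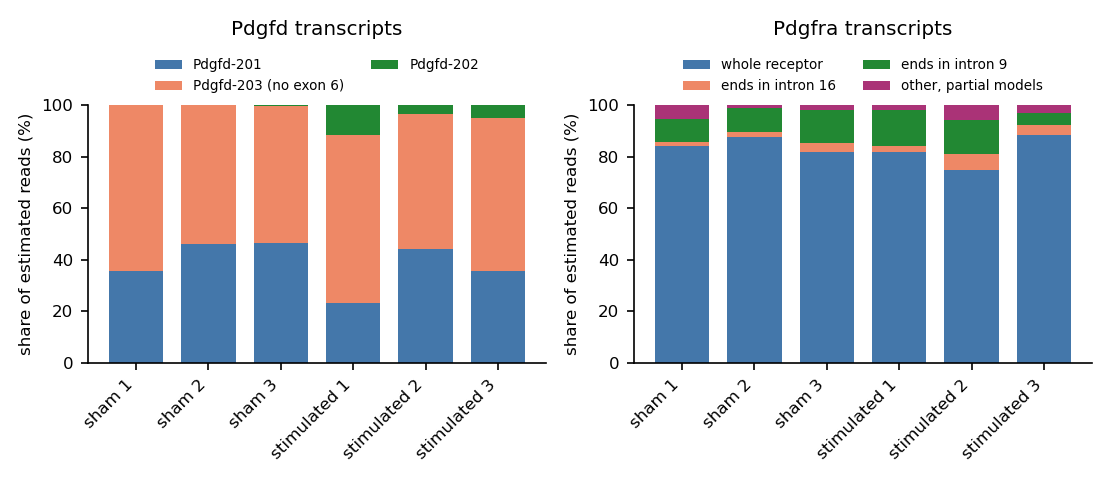
Share of estimated reads (%) assigned to Pdgfd transcripts (left) and to forms of Pdgfra (right) in each library, stacked to 100. Pdgfd-202 takes 3.32 to 11.4% in the stimulated libraries and at most 0.157% in the sham libraries, and the whole-receptor form of Pdgfra takes the largest share of reads in every library, up to 88.6%.

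Pdgfa (ENSMUSG00000025856.15, chr5:138976014-138997370, minus strand) encodes the classical ligand of PDGFR-alpha. It stood at 4.69, 5.72 and 8.31 CPM in stimulated libraries 1 to 3 and at 3.55, 8.34 and 4.46 CPM in sham libraries 1 to 3. The highest libraries of both groups were level, and the groups overlapped almost wholly. The log2 fold change was 0.20 (SE 0.40, 95% interval -0.71 to 1.10, adjusted p = 0.986 by edgeR). It had the opposite sign, -0.06, without stimulated 3 and -0.035 without sham 1.

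Pdgfa is made in a short and a long form, and the long form carries a basic tail that binds heparan sulphate and keeps the ligand near its source. The tail lies in exon 6 of 7 (Pdgfa-201), chr5:138978622-138978690 (GRCm38, minus strand), shown with its 53 coding bases in capitals. Of its 17 complete codons, 11 are for lysine or arginine.
Pdgfa long-form exon: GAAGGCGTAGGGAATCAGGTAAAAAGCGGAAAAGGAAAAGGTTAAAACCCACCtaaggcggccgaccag
Transcripts with this exon took 76.1, 52.6 and 71.1% of the reads of coding Pdgfa transcripts in stimulated libraries 1 to 3. In sham libraries 1 to 3 they took 88.5, 61.1 and 62.8%. The long form had the larger estimated part in each library, but only narrowly in stimulated 2 (52.6%). It rested on 40.5 to 118.5 estimated reads a library. The groups overlapped (66.6 ± 12.4% against 70.8 ± 15.3%, SD, n = 3 each, exact two-sided permutation test, p = 0.7).

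Pdgfc (ENSMUSG00000028019.9, chr3:81036416-81214040, plus strand) encodes the CUB-domain ligand of PDGFR-alpha. It was the least abundant of the 6, at 4.58, 2.66 and 3.01 CPM in stimulated libraries 1 to 3 and 2.71, 2.55 and 1.89 CPM in sham libraries 1 to 3. Stimulated 1 was highest, and stimulated 2 lay below sham 1. The log2 fold change was 0.52 (SE 0.37, 95% interval -0.32 to 1.36, adjusted p = 0.891 by edgeR), and 0.30 without stimulated 1. In 5 of 6 libraries most of its reads were assigned to transcripts annotated for nonsense-mediated decay, which hold an early stop: 80.0, 74.9 and 70.3% after stimulation and 83.3, 52.3 and 47.0% in sham (exact two-sided permutation test, p = 0.4).

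Pdgfra (ENSMUSG00000029231.15, chr5:75152292-75198215, plus strand) encodes PDGFR-alpha, the fibro-adipogenic marker. It was read at 25.3, 33.9 and 57.2 CPM in stimulated libraries 1 to 3 and at 44.5, 54.4 and 43.4 CPM in sham libraries 1 to 3. Stimulated 1 was the lowest and stimulated 3 the highest of the 6, so the stimulated group spanned the sham group. The log2 fold change was -0.29 (SE 0.32, 95% interval -1.01 to 0.43, adjusted p = 0.964 by edgeR). It was -0.68 without stimulated 3 and -0.01 without stimulated 1.

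Of the fibro-adipogenic markers, 11 of 14 had a negative log2 fold change, and their summed level was 1116 to 2921 CPM after stimulation and 1790 to 3752 CPM in sham. Relative to their mean log2 level, Pdgfra stood at -0.20 ± 0.32 after stimulation and -0.31 ± 0.18 in sham (SD, n = 3 each). The difference was 0.11 (exact two-sided permutation test, p = 0.7, adjusted p = 0.8).

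A Pdgfra transcript that stops inside an intron and encodes a receptor with a truncated kinase domain has been described in muscle fibro-adipogenic progenitors, and such a form is annotated here. In Pdgfra-208, exon 16 is the last exon and runs on into what is intron 16 of the 23-exon whole-receptor transcripts, at chr5:75183143-75183192 (GRCm38, plus strand). The read-through adds 47 coding bases before the stop codon, which is in capitals.
Pdgfra intron 16 read-through: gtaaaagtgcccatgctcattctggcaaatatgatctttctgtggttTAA
Transcripts ending in intron 16 (Pdgfra-205 and Pdgfra-208) were assigned 11.2, 37.0 and 53.9 reads in stimulated libraries 1 to 3 and 15.6, 17.0 and 27.7 reads in sham libraries 1 to 3. Their read share was 2.40, 6.12 and 3.87% after stimulation and 1.68, 1.56 and 3.39% in sham. Stimulated 1 lay below sham 3, so the groups overlapped (4.13 ± 1.88% against 2.21 ± 1.03%, SD, n = 3 each, exact two-sided permutation test, p = 0.2, adjusted p = 0.733). The whole receptor took 81.8 ± 6.80% of reads after stimulation and 84.7 ± 2.98% in sham (SD, n = 3 each). Longer transcripts give more reads, and by TPM, which is per length, the whole receptor took 45.5 to 63.5% over the 6 libraries. By TPM the form ending in intron 9 (Pdgfra-207) took 12.4 to 34.8%, against 4.50 to 13.9% of reads.

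Pdgfrb (ENSMUSG00000024620.11, chr18:61045150-61085061, plus strand) encodes PDGFR-beta, through which pericytes receive PDGF-B. It stood at 12.5, 23.2 and 43.7 CPM in stimulated libraries 1 to 3 and at 24.8, 59.8 and 37.2 CPM in sham libraries 1 to 3. It varied most of the 6, 4.77-fold between stimulated 1 and sham 2, and stimulated 3 exceeded sham libraries 1 and 3. The log2 fold change was -0.62 (SE 0.47, 95% interval -1.68 to 0.44, adjusted p = 0.906 by edgeR). It was -1.18 without stimulated 3 and -0.22 without sham 2 or without stimulated 1.

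The libraries fell in the same order by Pdgfrb as by the mean log2 level of the 15 pericyte markers, Mcam among them. Of these markers 14 had a negative log2 fold change, and their summed level was 443 to 708 CPM after stimulation and 642 to 955 CPM in sham. A large part of that sum was Ebf1, at 189.5 to 413 CPM, a gene that B cells express too. Smooth muscle cells, which also use PDGFR-beta, had 8 of 8 markers with a negative log2 fold change (median -1.04) and a summed level of 96.1 to 230.1 CPM after stimulation and 165 to 449 CPM in sham. The part of these cells in the Pdgfrb values was not tested. Relative to the marker mean, Pdgfrb stood at 1.22 ± 0.41 and 1.13 ± 0.25 on the log2 scale (SD, n = 3 each), a difference of 0.09 (exact two-sided permutation test, p = 0.7, adjusted p = 0.8).

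**Figure D4:**
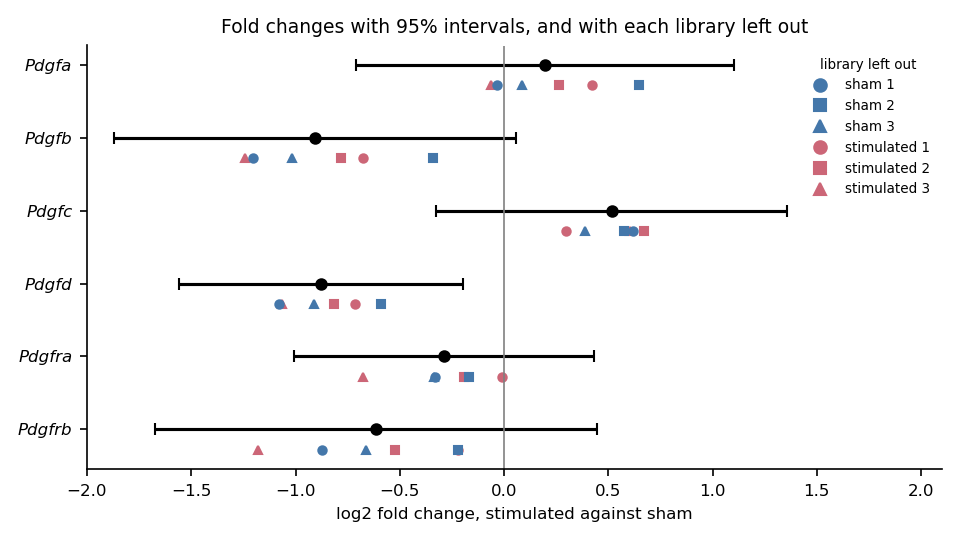
Log2 fold change of each gene, stimulated against sham, from edgeR (black point with 95% interval) and, beneath it, with each library left out (colour gives the group and shape the replicate). Only the Pdgfd interval lies wholly below 0. Of the Pdgfb values with a library left out, the one without sham library 2 is nearest to 0, at -0.34. Other genes come nearer, such as Pdgfra at -0.009 without stimulated library 1.

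Ratios within a library remove its depth. By deposited TPM, which are scaled to transcript length and library size, Pdgfra exceeded Pdgfrb 3.62, 2.62 and 2.35 times in stimulated libraries 1 to 3 and 3.22, 1.63 and 2.09 times in sham libraries 1 to 3. The log2 ratio was 0.34 higher after stimulation (exact two-sided permutation test, p = 0.4). With the pseudocount of 0.1 TPM, which is of the size of the values, the difference was 0.09 (p = 0.8, exact permutation, adjusted p = 0.8). Pdgfb exceeded its receptor Pdgfrb 8.14, 4.85 and 4.40 times after stimulation and 5.54, 6.97 and 5.58 times in sham. Stimulated 1 was the highest and stimulated 3 the lowest of the 6, and the log2 ratio differed by -0.10 (p = 0.8, exact two-sided permutation test). With the pseudocount the difference was -0.39 (p = 0.3, exact permutation, adjusted p = 0.75), or -0.188 without sham 2.

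Genes with the closest profile over the 6 libraries were taken from 9704 protein-coding genes by the root mean square difference of centred log2 CPM. For Pdgfb they were Mylk at 0.097, Adarb1 at 0.10 and Yes1 at 0.10. For Pdgfd they were Cttnbp2nl at 0.064, Tcf4 at 0.068 and Rassf3 at 0.071. Pdgfra lay nearest to Klf3 and Tle1, both at 0.117, and Ddr2 at 0.122, and Pdgfrb to Igfbp5 at 0.143, Phldb1 at 0.154 and Igfbp6 at 0.161. Pdgfa came nearest to Tubb6 at 0.105, Cdc42ep4 at 0.120 and Adamts9 at 0.132, and Pdgfc to Dclre1b at 0.124, E330009J07Rik at 0.144 and B430306N03Rik at 0.145. Among the 6 themselves, Pdgfb and Pdgfd were closest (0.227) and Pdgfc and Pdgfrb farthest apart (1.009).

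The other genes of the pathway were described by 6 lists of 99 genes in all. None passed the edgeR test, and 15 of 99 (15.2%) had an unadjusted edgeR p below 0.05, beside 7.05% of all tested genes. The lists were chosen with earlier results of these data known, so the difference between these shares is not independent support for a pathway change. Groups did not overlap in 0 of 6 proteases, 1 of 5 co-receptors and binding proteins, 1 of 6 receptor relatives and 4 of 44 effectors. Attenuators had 1 higher and 2 lower of 21, and PDGF-induced genes 2 higher and 4 lower of 17. Over all tested genes the share was 12.0%. Most genes named below were picked for their small p, so their lack of overlap adds nothing to it. Proteases that process the ligands were 4 with a positive and 2 with a negative log2 fold change (median 0.07). Plau, which encodes the urokinase that cuts PDGF-D, was at 41.0, 36.3 and 61.7 CPM in stimulated libraries 1 to 3 and 28.9, 54.2 and 36.8 CPM in sham libraries 1 to 3. St14, which encodes matriptase, another protease of PDGF-D, had a log2 fold change of 0.36 (SE 0.33), or 0.08 without sham 2 and 0.65 without sham 3. Plat, which encodes the tissue plasminogen activator that cuts PDGF-C, had -0.17 (SE 0.29). The propeptide convertase genes Furin, Pcsk6 and Pcsk5 had 0.10, 0.04 and -0.98, and Pcsk5 had an adjusted p of 0.668 by edgeR and a log2 fold change of -0.61 without sham 2. The signs of Plau, Plat, Furin and Pcsk6 changed when 1 library was left out.

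Co-receptors and binding proteins all had negative log2 fold changes, 5 of 5, with a median of -0.94. Nrp1, which encodes the neuropilin that binds PDGF ligands and semaphorins, stood at 141, 174 and 223 CPM in stimulated libraries 1 to 3 and 272, 710 and 407 CPM in sham libraries 1 to 3. The groups did not overlap, and the log2 fold change was -1.37 (SE 0.38) with an adjusted p of 0.532 by edgeR. DESeq2 gave Nrp1 an adjusted p of 0.0462, and its log2 fold change by edgeR was -0.915 without sham 2. Nrp1 is also an endothelial gene, and the endothelial levels given above were lower too; their part in the Nrp1 result was not tested. Sparc, a matrix protein that binds PDGF-B, had -0.94 (adjusted p = 0.703 by edgeR) and -0.47 without sham 2. Pdgfrl, which encodes a receptor-like protein, had -0.75, or -0.42 without sham 1, and Lrp1, an endocytic receptor, -0.20, or 0.17 without sham 2. A2m, a protease inhibitor that binds PDGF, had -1.13 in the gene table and -0.39 in reads summed over transcripts, and -0.20 in the gene table without sham 1.

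Relatives of the PDGF receptors were 3 with a positive and 3 with a negative log2 fold change. Kitl, the ligand of the Kit receptor, was at 99.4, 113 and 170 CPM after stimulation and 182, 426 and 231 CPM in sham, without overlap. Its log2 fold change was -1.13 (SE 0.37, adjusted p = 0.594 by edgeR and 0.157 by DESeq2), and -0.69 without sham 2. Csf1r, a macrophage receptor, had -0.78 (SE 0.41), or -0.22 without sham 2. Its ligand gene Csf1 had 0.40 (SE 0.39), or 0.08 without stimulated 3. Kit, the receptor of the Kitl product, had -0.49 (SE 0.32), or -0.27 without stimulated 2 and -0.81 without stimulated 1.

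Of 44 adaptors and effectors, 17 had a positive and 27 a negative log2 fold change (median -0.19), and 6 had an unadjusted edgeR p below 0.05, all negative. Dock4, which encodes an activator of Rac, stood at 49.5, 57.4 and 68.0 CPM in stimulated libraries 1 to 3 and 126, 255 and 116 CPM in sham libraries 1 to 3. All sham libraries lay above all stimulated ones (log2 fold change -1.51, SE 0.35, adjusted p = 0.424 by edgeR and 0.00951 by DESeq2). Without sham 2 the Dock4 value was -1.04. Mapk3, which encodes the kinase ERK1, stood at 32.9, 29.5 and 35.7 CPM after stimulation and 49.5, 94.0 and 63.7 CPM in sham, again apart. Its log2 fold change was -1.08 (SE 0.28, adjusted p = 0.499 by edgeR and 0.05965 by DESeq2), and -0.79 without sham 2. Arhgap32, which encodes a GTPase-activating protein, had -0.82 (SE 0.32, adjusted p = 0.668 by edgeR), also without overlap. The Arhgap32 value was -0.56 without stimulated 2 and -0.59 in reads summed over transcripts. Src, a kinase that binds the activated receptors, had -2.23 in the gene table but 0.18 in reads summed over transcripts, so its direction depends on how reads were added up.

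The 21 attenuators, 11 with a positive and 10 with a negative log2 fold change (median 0.10), are phosphatases, ubiquitin ligases and inhibitors that end the signal. Ptprj, which encodes a phosphatase of PDGFR-beta, was at 159, 154 and 155 CPM in stimulated libraries 1 to 3 and 97.8, 83.0 and 142 CPM in sham libraries 1 to 3. The stimulated libraries were higher without overlap, with a log2 fold change of 0.53 (SE 0.27, adjusted p = 0.755 by edgeR), or 0.38 without sham 2. Spred2, an inhibitor of the Ras pathway, had -1.06 (SE 0.30, adjusted p = 0.541 by edgeR and 0.114 by DESeq2), also without overlap. Without sham 2 the Spred2 value was -0.82. Spry4 and Dusp6, feedback inhibitors of the ERK pathway, had -0.90 and -0.51. The Spry4 value was -0.49 without sham 2 and -1.66 without stimulated 3, and the Dusp6 value was -0.31 without stimulated 1.

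The 17 genes known to be induced by PDGF in cultured fibroblasts were 7 with a positive and 10 with a negative log2 fold change (median -0.17). Ccl2, which encodes a chemokine for monocytes, stood at 23.9, 17.5 and 24.2 CPM in stimulated libraries 1 to 3 and 7.73, 10.9 and 8.51 CPM in sham libraries 1 to 3. The lowest stimulated library was well above the highest sham library (log2 fold change 1.27, SE 0.27, adjusted p = 0.424 by edgeR and 0.00556 by DESeq2). Egr1, an immediate early transcription factor, went the other way, at 238, 282 and 277 CPM after stimulation and 421, 503 and 431 CPM in sham. Its log2 fold change was -0.77 (SE 0.25, adjusted p = 0.589 by edgeR and 0.114 by DESeq2). Fosb and Fos, of the same class, had -1.17 and -0.81, both without overlap, and Fos had -0.52 without sham 3. DESeq2 gave Fosb an adjusted p of 0.0906 and Fos 0.356. Neutrophil markers had positive log2 fold changes in 8 of 8 tested, with a summed level of 142 to 199.5 CPM after stimulation and 54.5 to 69.5 CPM in sham. Lymphocyte markers had them in 10 of 10, but their summed level was 1785, 1915 and 1492 CPM in stimulated libraries 1 to 3 and 1394, 229 and 2183 CPM in sham libraries 1 to 3. Sham 2 was far below the rest and sham 3 above every stimulated library. The part of these cells in the values above was not tested.

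**Figure D5:**
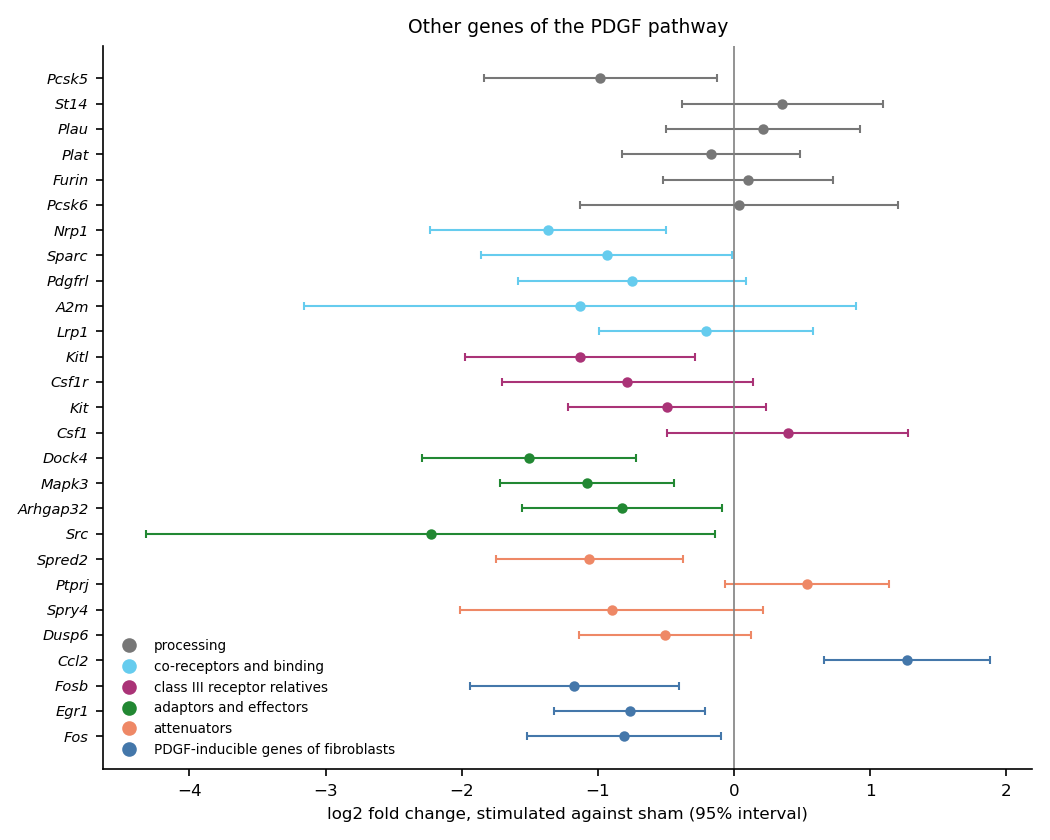
Log2 fold change, stimulated against sham, with 95% interval (edgeR) for the named genes of the 6 pathway lists, coloured by list. Ccl2 is the highest, at 1.27, and Src the lowest, at -2.23, with the widest interval among the effectors. In reads summed over transcripts, which are not drawn, the Src value was 0.18.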

How the data were processed

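Estimated counts per gene were deposited in 1 table, and each library has a file of transcripts whose columns are TPM, estimated reads and lengths, per the file headers. The TPM and estimated counts are the authors' own. The gene counts matched the reads summed over transcripts, to within 1 in every library, for 24068 of 53715 genes. CPM therefore need not follow the reads of a gene. Salmon 0.8.2 and Trimmomatic 0.36, on the build GRCm38, are among the tools in the submitters' processing notes, beside bcl2fastq 2.17.1.14, edgeR and R 3.5.1; no settings are given there. Groups and replicate numbers come from the sample titles.

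Estimated counts were rounded. Genes were kept by filterByExpr (minimum count 10, minimum total 15), scaled by TMM and tested in edgeR 4.0.16 (R 4.3.3) by the quasi-likelihood F test with robust estimation, stimulated against sham, with Benjamini-Hochberg adjustment at 0.05 over 26559 genes. The SE is the size of the log2 fold change divided by the square root of F. The common biological coefficient of variation was 0.398. Transcripts were fitted likewise. The test was checked on simulated counts with 200 changed genes. Ratios used log2(TPM + 0.1). Log2 CPM used a prior count of 2. Replicates differed by far more than sampling noise (chi-square per gene 30.0 to 105.8) and were all counted.

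Alternatives were DESeq2 1.42.0, limma voom (limma 3.58.1), RLE size factors, other filters, summed transcript reads, mitochondrial and ribosomal RNA genes left out, a replicate block, a pseudocount of 1 and each library left out. Ratios with no pseudocount and the Pdgfd-202 fit were added after seeing the data. The genes and lists were chosen with earlier results of these data known. From each pathway list the 4 genes with the smallest p were named, and from the proteases and the co-receptors all. The 3 genes nearest to each PDGF gene had a mean log2 CPM of at least 3. Positions are from GENCODE M21 (GRCm38), which matched 99.8% of gene identifiers.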

Additional observations from a re-analysis of the deposited data

How the results depend on the processing

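No PDGF gene passed the threshold in any of the 14 alternatives, and the signs of Pdgfb, Pdgfc, Pdgfd, Pdgfra and Pdgfrb were the same in each of them. With each library left out in turn, Pdgfa ranged from -0.064 to 0.647, Pdgfb from -1.24 to -0.34, Pdgfc from 0.30 to 0.67, Pdgfd from -1.08 to -0.59, Pdgfra from -0.68 to -0.01 and Pdgfrb from -1.18 to -0.22 (log2 fold change). Over all genes, 0 were higher and 0 lower by edgeR, 1872 had an unadjusted p below 0.05, and DESeq2 called 74 higher and 153 lower (6724 genes without an adjusted p). No filter on low counts gave 44 and 65, RLE size factors 3 higher, summed transcript reads 1 higher, and leaving out a library 0 to 1 higher, the 1 without stimulated replicate 3. The Pdgfra to Pdgfrb difference was -0.052 with a pseudocount of 1 and ranged from -0.051 to 0.291 with a library left out. The same ranges were -0.068 to 0.32 for Pdgfrb against pericyte markers and -0.048 to 0.268 for Pdgfra against fibro-adipogenic markers, 0.147 to 0.353 for Pdgfb against endothelial markers and -0.507 to -0.188 for Pdgfb against Pdgfrb. The causes were not tested. Stimulated and sham libraries share replicate numbers only: the correlation of their deviations was 0.317, -0.161 and 0.128 for numbers 1, 2 and 3. A fit with the replicate number as a block called 0 genes, with a Pdgfd log2 fold change of -0.85 (adjusted p = 0.667, edgeR). Pdgfc rests on 40 to 83 reads a library and the long form of Pdgfa on 40.5 to 118.5. Pdgfd-202 rests on 0 to 50.4 and the Pdgfra forms ending in intron 16 on 11.2 to 53.9. Such low numbers limit the precision of all these shares.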
